A study of Bos taurus with 6 samples.

Results

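The family of miR-2284 and miR-2285, a large group of ruminant miRNAs, was examined in the liver of grass-fed and grain-fed Wye Angus steers. Its members were taken as every mature miRNA in the deposited tables whose name begins with bta-miR-2284 or bta-miR-2285, whatever letter or arm follows. The rule uses names and no measured value. By this rule 148 of the 1030 listed mature miRNAs belonged to the family, 31 named miR-2284 and 117 named miR-2285. The 3 grass-fed steers were 21 months old and lived on alfalfa, hay or grass pasture. The 3 grain-fed steers were 14 months old and ate mainly corn silage, shelled corn, soybean and minerals. All 6 came from the same closed Angus herd and were sampled from the left liver lobe at market weight, with 1 small RNA library per animal. Values per animal are given below in the order of replicates 1, 2 and 3. Age and diet separate the animals in the same way and cannot be told apart.

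A miRNA is cut from a hairpin precursor, and one arm or both arms of the hairpin can be kept as the mature strand. The mature strand pairs with target mRNAs through a short stretch near its 5′ end, the seed, and lowers their stability or translation. The family is known for its many genomic copies in ruminants, with letters added to the name as copies were found. Copies that differ little give reads that can be placed on several hairpins, so a level under one name may belong to another.

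Each library was counted per pair of mature miRNA and hairpin precursor, and the largest count over its precursors was taken for each mature miRNA. The totals over all mature miRNAs ran from 3824592 to 6133960 in the grass-fed and from 464875 to 892929 in the grain-fed libraries, so diet and depth also separated the libraries in the same way. A level is given in CPM, the count relative to the total of its library, after TMM scaling, a method of edgeR that sets the bulk of miRNAs level between libraries. A member without a count could still lie at 0.632 to 0.787 CPM in the grass-fed and at 2.92 to 5.32 CPM in the grain-fed libraries, taking 3 counts per library as the limit that 0 counts allow. This limit covers counting error only. The hepatocyte miRNAs of a list drawn up for the tissue check (4 of 4 tested) summed to 516582 to 820654 CPM in grass-fed and 328175 to 389842 CPM in grain-fed libraries, and the lists for other cell types were lower. The next highest, 4 mesenchymal miRNAs, summed to 77102 to 112487 CPM in grass-fed and 71668 to 84596 CPM in grain-fed libraries. None of the listed markers was at 0 in all libraries. Of the 4 hepatocyte miRNAs, 2 were called between diets, and their part in the values of the family was not tested. In bulk tissue, fewer cells of a type and less RNA per cell cannot be told apart.

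The family was broad and mostly faint. Of the 148 members, 124 had at least 1 count in some library and 24 had none in any library. The study kept a miRNA once 2 or more libraries exceeded 2 counts, a rule met by 84 members, or 56.8%. In the other miRNAs with a catalogue number of 2000 or more, also late entries, 92 of 471 met it, and in miRNAs numbered below 2000, 280 of 411. The family thus made up 84 of the 456 detected miRNAs. A total of 50 members had a count in every library, and 14 had at least 10 counts in every library. No member was detected through the grain-fed libraries without also being detected through the grass-fed ones, and 40 met the rule within the grain-fed group against 82 within the grass-fed group. Among members near the limit, bta-miR-2285ab passed with 3, 2 and 3 counts in grass-fed animals against 2, 1 and 2 in grain-fed animals. bta-miR-2285cp did not pass with 1, 10 and 0 counts in grass-fed animals against none in grain-fed animals. In all, 9 members were above 2 counts in 1 library and stayed outside.

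The number of members seen in a library followed its depth. With a count above 2 there were 80, 85 and 79 members in grass-fed animals against 44, 42 and 39 in grain-fed animals. The groups did not overlap. If every library is drawn down to the smallest total of 464875 counts, the expected numbers, computed exactly and without resampling, are 31.8, 30.8 and 33.4 in grass-fed animals against 35.9, 33.9 and 39.0 in grain-fed animals. At a common total the expected grass-fed numbers above 2 counts were thus no higher than the grain-fed ones, and the order of the groups was turned around. With at least 1 count as the limit, the expected numbers were 59.8, 59.9 and 63.4 in grass-fed animals. In grain-fed animals they were 60.7, 76.1 and 68.0, so the ranges overlapped. The totals include bta-miR-122, a hepatocyte miRNA, and leaving it out turned the direction of the family share given below. Drawing the libraries down without it was not tried, so the turned order holds for these totals and for counts above 2 only.

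**Figure D1:**
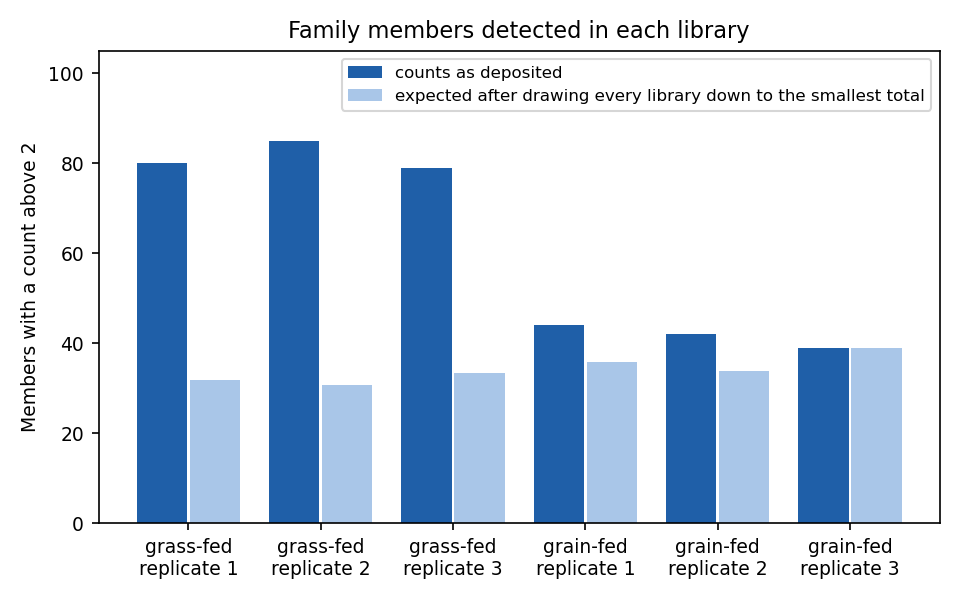
Number of family members with a count above 2 in each of the 6 libraries, as deposited (dark bars) and expected after drawing every library down to the smallest total of 464875 counts (light bars). The dark bars stand at 79 to 85 in grass-fed and 39 to 44 in grain-fed libraries, and the light bars lie between 30.8 and 39.0 in all 6.

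The counts of the family were held by very few names. As listed, the 148 members took 0.302%, 0.302% and 0.319% of all miRNA counts in grass-fed animals against 0.345%, 0.291% and 0.331% in grain-fed animals. The group means were 0.308% ± 0.00958 (SD, n = 3) and 0.322% ± 0.0279 (SD, n = 3), and the ranges overlapped. The direction depended on bta-miR-122: with its counts left out of the totals the means were 0.435% and 0.395%, higher in grass-fed libraries, and the ranges also overlapped. The names bta-miR-2284x, bta-miR-2284y and bta-miR-2285av alone made up 63.8% to 77.2% of the family counts of a library, and the 10 most abundant names 85.2% to 88.6%. These shares count the same reads under several names, as described below. With 1 name, the largest, kept per group of members that share reads, bta-miR-2284x held 40.2% to 57.0% of the family. No member reached a mean of 1000 CPM over the 6 libraries, 5 of the tested members lay between 100 and 1000 CPM, 20 between 10 and 100, 48 between 1 and 10, and 11 below 1. The median over tested members was 3.34 CPM, against 41.5 CPM over tested miRNAs numbered below 2000. For 42 of the 84 the grass-fed mean was below 2.92 CPM, the level that a count of 0 still allowed in the deepest grain-fed library.

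bta-miR-2284x, the most abundant member, ranked 61 among all 1030 miRNAs by mean CPM. It had 3703, 4770 and 2942 counts in grass-fed animals against 753, 394 and 348 in grain-fed animals, which gave 780, 1124 and 772 CPM against 733, 558 and 617 CPM. Grass-fed replicate 2 stood above the other libraries, and the lowest grass-fed library was above the highest grain-fed one. bta-miR-2284y and bta-miR-2285av followed at 763 CPM each, on counts of the bta-miR-2284x hairpin as described below. The next name was bta-miR-2285f, at rank 108, with 194, 131 and 150 CPM in grass-fed animals against 122, 258 and 167 CPM in grain-fed animals. The highest and the lowest of these values both came from grain-fed animals. bta-miR-2285t had 137, 107 and 157 CPM in grass-fed animals against 58.4, 116 and 131 CPM in grain-fed animals, with grain-fed replicate 1 lowest and the other grain-fed values inside the grass-fed range. Below these, bta-miR-2284h-5p, bta-miR-2285bo, bta-miR-2285k, bta-miR-2285bn and bta-miR-2285ce had means between 29.1 and 57.0 CPM. bta-miR-2284h and bta-miR-2284t were the family names with both arms listed, and bta-miR-2284h-3p had no count in any library. On the same hairpin bta-miR-2284h-5p had 5, 20 and 6 counts in grass-fed animals against 7, 2 and 2 in grain-fed animals. Its larger counts, 258, 285 and 219 in grass-fed animals against 55, 41 and 29 in grain-fed animals, lay on a precursor of bta-miR-2284y.

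**Figure D2:**
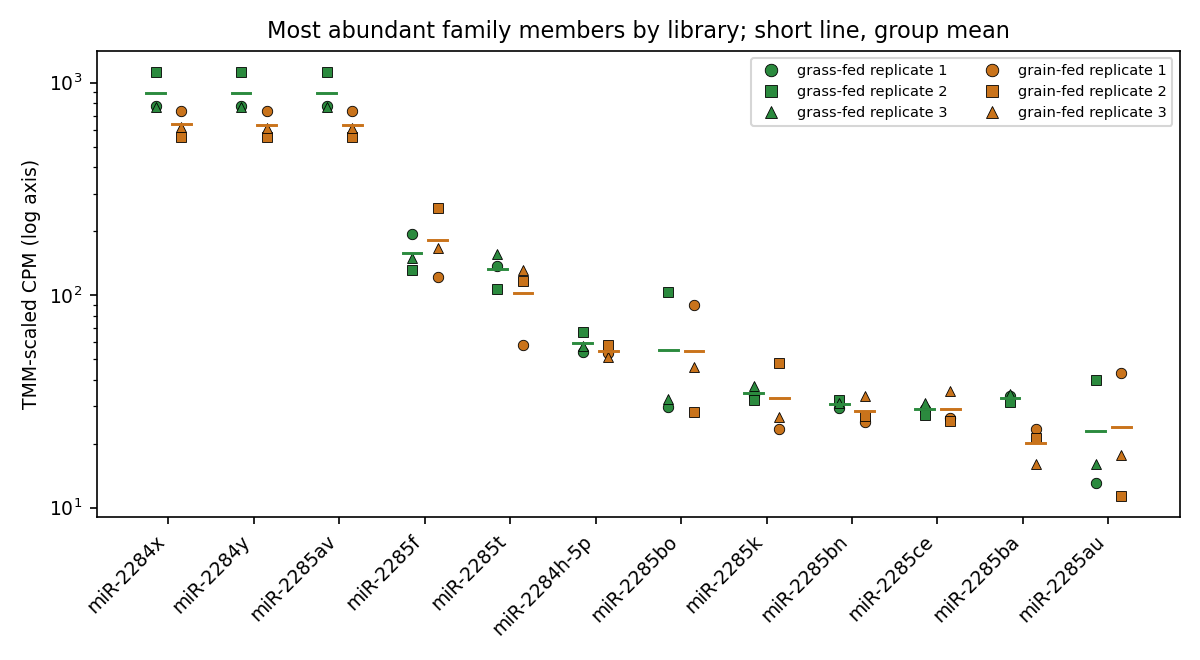
TMM-scaled CPM on a log axis for the 12 most abundant family members, with 1 point per library, replicates by marker shape, diets by colour and the group mean as a short line. The 3 names at the left share nearly all their counts and lie between 556 and 1124 CPM, and the other 9 reach at most 258 CPM.

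Many of these names were counted on the same reads. The 242 listed pairs of a member and a precursor involved 206 precursors of the family, 41 members had more than 1 precursor, and bta-miR-2284aa had as many as 11. In 34 pairs the precursor carried the name of another member, which concerned 18 members. Among members with any count, 13 groups holding 27 members had identical counts in all 6 libraries. In 7 of these groups, with 14 detected members, the names were listed under a common precursor. The other 6 groups held members with at most 3 counts over all libraries, where equal counts need no shared read. The 7 pairs were bta-miR-2284y with bta-miR-2285av, bta-miR-2284ab with bta-miR-2285by, bta-miR-2285aw with bta-miR-2285cm, bta-miR-2285bl with bta-miR-2285co, bta-miR-2284ac with bta-miR-2285ai-5p, bta-miR-2285am-5p with bta-miR-2285dc, and bta-miR-2285ar with bta-miR-2285bd. When near-equal counts under a common precursor also counted as shared, the rule gave 9 groups with 21 members, all detected.

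The hairpin of bta-miR-2284x gave the clearest case. On this 1 precursor bta-miR-2284x, bta-miR-2284y and bta-miR-2285av were listed with 3703, 3701 and 3701 counts in grass-fed replicate 1 and with 348, 347 and 347 in grain-fed replicate 3. On its own 7 precursors bta-miR-2284y had at most 262, 289 and 222 counts in grass-fed animals against 58, 41 and 30 in grain-fed animals. Those 7 precursors differed from each other by little, from 248 to 262 counts in grass-fed replicate 1. On its own precursor bta-miR-2285av had 142, 199 and 145 counts in grass-fed animals against 37, 26 and 19 in grain-fed animals. Summed over the 6 libraries, the largest count was 14.3 times the own-name count for bta-miR-2284y and 22.7 times for bta-miR-2285av. Their place beside bta-miR-2284x at the top of the family thus rested on the precursor of bta-miR-2284x.

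Counts from a hairpin of another name also set the level of fainter members. bta-miR-2284h-5p had 887 counts over all libraries, as listed under the fourth precursor of bta-miR-2284y, and 42 under its own hairpin. bta-miR-2285by had 195 counts through the precursor of bta-miR-2284ab and 13 through its own. bta-miR-2285co had 155 through that of bta-miR-2285bl and 7 through its own, and bta-miR-2285aw had 180 through that of bta-miR-2285cm and 24 through its own. bta-miR-2285f differed from these: its largest count lay on the hairpin of bta-mir-2285z, with 2453 counts over all libraries, and its own second precursor held nearly as many, so that its own-name sum was 2389. Its own first precursor held 456, 291 and 401 counts in grass-fed libraries against 895, 540 and 564 on the second, so the copies of one name were not equally covered. Of the 18 members listed under another name, 9 were at least 2 times lower on their own precursors, 8 were less than 2 times lower or equal, and bta-miR-2285aq had no count. For a further share only the largest member of each shared group was kept, so separate counts of its other members, if any, were left out. Counted in this way, the family took 0.145% ± 0.00788 of the miRNA counts in grass-fed and 0.162% ± 0.00734 in grain-fed libraries (SD, n = 3 each). The grass-fed values were 0.145%, 0.137% and 0.152% and the grain-fed values 0.163%, 0.155% and 0.169%, so the ranges did not overlap in this counting, which was chosen after the shared reads had been seen. The totals here include bta-miR-122, whose removal turned the direction of the share as listed, and its removal was not tried in this counting. In it bta-miR-2284x held 40.2% to 57.0% of the family.

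**Figure D3:**
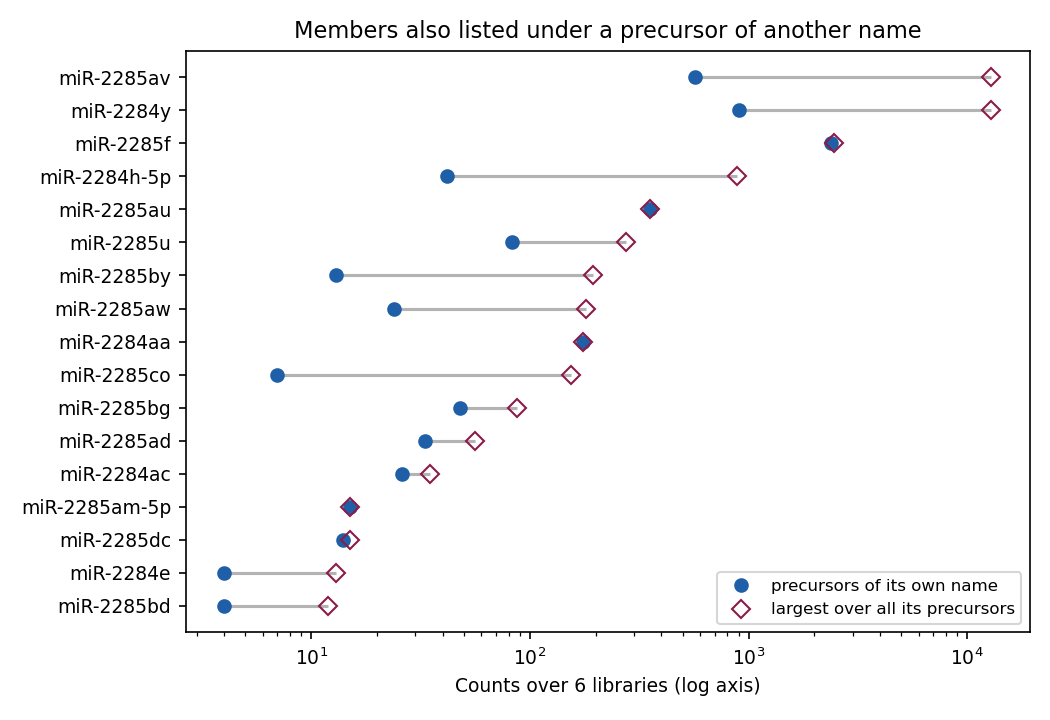
Counts over the 6 libraries on a log axis for the 17 members with a count that are also listed under a precursor of another name. Circles give the count on precursors of the member's own name and diamonds the largest count over all its precursors, and the distance is widest for miR-2285av, miR-2285co, miR-2284h-5p, miR-2285by and miR-2284y.

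The diets were then compared for the whole table, to see which members differed between grass-fed and grain-fed liver. By edgeR (quasi-likelihood test, p-values adjusted by Benjamini-Hochberg over all 456 tested miRNAs), none of the 84 tested members passed FDR 0.1, where 87 miRNAs of the whole table, or 19.1%, were called. The smallest FDR of a member was 0.160. At an unadjusted p below 0.05 the same fit held 3 members (bta-miR-2285ab, bta-miR-2285ba and bta-miR-2285i), where 25.2% of all tested miRNAs reached it, and DESeq2 and the exact test of edgeR also called 0 members. Among miRNAs numbered below 2000, 62 of 280 were called, and among the other miRNAs numbered 2000 or above, 25 of 92, 24 of them lower in grass-fed liver. With at least 10 counts in every library, 0 of 14 members and 58 of all 202 such miRNAs were called, and the difference between these numbers was not tested. The 14 are not separate measurements. bta-miR-2284x, bta-miR-2284y, bta-miR-2285av and bta-miR-2284h-5p fall in 1 group of shared reads, and bta-miR-2285o and bta-miR-2285u in another. With members that share a precursor merged, 0 of 72 members and 89 miRNAs of the whole table were called. The tested members had a median log2 fold change, grass-fed minus grain-fed, of 0.13, the same as the 0.13 over all tested miRNAs. Of the 84, 49 were fitted higher in grass-fed and 35 lower, against 263 and 193 of all 456 tested miRNAs. The filter affects this tally, as 82 members met it within the grass-fed group and 40 within the grain-fed group.

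**Figure D4:**
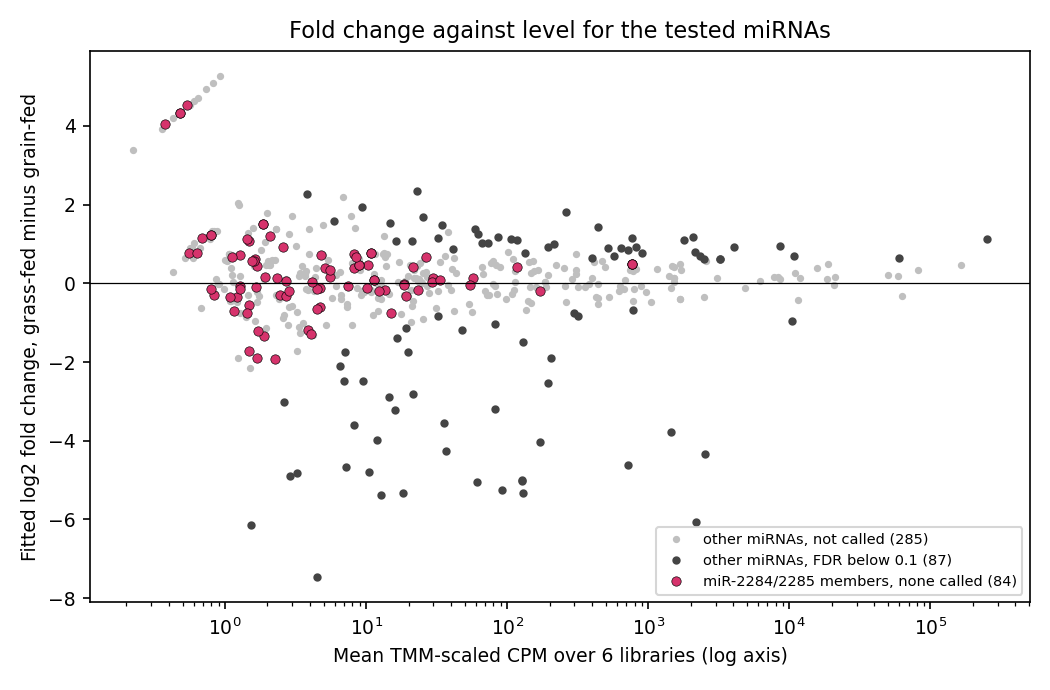
Fitted log2 fold change, grass-fed minus grain-fed, against mean TMM-scaled CPM (log axis) for the 456 tested miRNAs. The 84 family members run from -1.92 to 4.52 with none called, the 4 at the upper left have no grain-fed count, and the 87 called miRNAs are all outside the family.

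The error of these fold changes grew as the level fell. The median standard error was 0.23 on the log2 scale for members of 100 to 1000 CPM, 0.40 for 10 to 100, 0.77 for 1 to 10 and 1.36 below 1 CPM. The 95% interval of the log2 fold change lay within -1 and 1 for 13 members, and for 35 it covered both -1 and 1, so that for those a change of that size in either direction cannot be told from none. An exact permutation test of a single member, 3 libraries against 3, cannot go below p = 0.1. CPM ranges of the diets did not overlap for 14 of the 84 members, against 32.9% of all tested miRNAs. Of these 14, 11 were higher and 3 lower in grass-fed liver, numbers that the filter affects and from which no direction is read. The members with at least 10 counts in every library were the 3 names that share the bta-miR-2284x hairpin. Another 4 had no grain-fed count. With 3 counts over the grain-fed group as the limit, their grass-fed level was at most 0.837 times what that group still allowed, so none is shown to be higher.

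For bta-miR-2284x the mean was 892 ± 201 CPM (SD, n = 3) under grass and 636 ± 89.3 CPM (SD, n = 3) under grain. The fitted log2 difference of 0.49 had a 95% interval from -0.01 to 0.98 (FDR = 0.201, edgeR). This value depended on the scaling. With upper-quartile scaling in edgeR, which called 27.2% of all tested miRNAs, bta-miR-2284x, bta-miR-2284y, bta-miR-2285av and bta-miR-2285ba passed, the first at 0.66 (FDR = 0.0386). With libraries scaled by total count alone, which called 16.2%, its log2 fold change was 0.04 (FDR = 0.945, edgeR), and its plain CPM, without TMM, was 729, 778 and 769 in grass-fed animals against 843, 621 and 749 in grain-fed animals, which overlap. The median over all tested miRNAs was 0.31 with upper-quartile scaling and -0.29 with total counts. bta-miR-2285f and bta-miR-2285t, next in level, had log2 fold changes of -0.19 and 0.43, with FDR of 0.760 and 0.424 in edgeR. Without grain-fed replicate 1, the lowest library for bta-miR-2285t, its value was 0.070, and over all libraries left out in turn it ran up to 0.62. On precursors of their own name bta-miR-2284y and bta-miR-2285av had log2 fold changes of 0.09 and 0.08, with FDR of 0.852 and 0.895 in edgeR.

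bta-miR-2285ba, a member with 2 precursors of its own name and no shared name, had 33.5, 31.3 and 34.1 CPM in grass-fed animals against 23.4, 21.2 and 16.0 CPM in grain-fed animals. After TMM scaling every grass-fed library was above every grain-fed library. In plain CPM, without TMM, the ranges overlapped, and grass-fed replicate 2 lay below grain-fed replicates 1 and 2. The log2 fold change of bta-miR-2285ba was 0.67 (standard error 0.29, FDR = 0.180, edgeR), and 0.27 with total counts alone. bta-miR-2285b, a member of lower level, had 10.3, 12.5 and 9.45 CPM in grass-fed animals against 9.74, 25.5 and 23.1 CPM in grain-fed animals. Grain-fed replicate 1 lay within the grass-fed range and the other grain-fed libraries above it. Its log2 fold change was -0.76 with a 95% interval from -1.62 to 0.09 (FDR = 0.235, edgeR). It passed without grain-fed replicate 1, at -1.23 (FDR = 0.0615, edgeR), and with total counts alone, at -1.19 (FDR = 0.0820, edgeR), where every grain-fed library was above every grass-fed one.

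The remaining members that passed in some setting were faint. bta-miR-2285i had 10, 8 and 11 counts in grass-fed animals against 5, 3 and 4 in grain-fed animals, or 2.29 ± 0.526 against 5.40 ± 1.50 CPM (SD, n = 3 each). Its CPM ranges did not overlap, and the log2 difference was -1.19 (FDR = 0.181, edgeR). bta-miR-2285ab had the smallest FDR of the family, 0.160 in edgeR, with a log2 fold change of -1.73 that rested on 13 counts in all. limma-voom, which called 20.6% of all tested miRNAs, called these 2 members, with FDR of 0.0943 for bta-miR-2285i and 0.0501 for bta-miR-2285ab. bta-miR-2285ab also passed with total counts alone (FDR = 0.0881, edgeR) and bta-miR-2285i with the stricter filter of filterByExpr (FDR = 0.0858, edgeR). bta-miR-2285m had the largest fitted decrease, -1.92 (FDR = 0.196, edgeR), with 5, 2 and 3 counts in grass-fed animals against 1, 1 and 5 in grain-fed animals. Grain-fed replicate 3 alone was high, and without it the log2 fold change was -0.58. With counts summed over its precursors it passed, at -2.17 (FDR = 0.0888, edgeR). bta-miR-2284ac and bta-miR-2285ai-5p, which share their counts, had 13, 12 and 8 in grass-fed animals against 0, 0 and 2 in grain-fed animals, with a fitted log2 difference of 1.50 (FDR = 0.438, edgeR). Both passed at 5.92 without grain-fed replicate 3 (FDR = 0.0942, edgeR), a fitted value against 0 counts that depends on the prior count and is no bound. The 2 counts of that library lay on the precursor of bta-miR-2285ai-5p. On its own precursor bta-miR-2284ac had 9, 10 and 7 counts in grass-fed animals against none in grain-fed animals, and it passed in that counting (FDR = 0.0749, edgeR). There it entered the test only through the grass-fed libraries, in a counting that was added after the data had been seen. With 3 counts over the grain-fed group as the limit, its grass-fed level after TMM scaling was 1.55 times the level that the grain-fed group still allowed. This bound covers counting error only, and no difference between diets is drawn from it. The largest fitted increase, 4.52 for bta-miR-2285bh, came from 6, 6 and 2 counts in grass-fed animals against none in grain-fed animals. With 3 counts over the grain-fed group as the limit, its grass-fed level was only 0.837 times the level that the grain-fed group still allowed, so these counts do not show that it was higher.

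Animals of one diet differed more than the diets for some members, chosen here after their values were seen. bta-miR-2285bo had 29.7, 103 and 32.5 CPM in grass-fed animals against 89.6, 28.3 and 46.1 CPM in grain-fed animals. Grass-fed replicate 2 and grain-fed replicate 1 were high and the other libraries were low, so that the highest value was 3.48 times the lowest within grass-fed and 3.16 times within grain-fed liver. The group means were 55.1 ± 41.7 and 54.7 ± 31.5 CPM (SD over 3 animals), and the difference of -0.05 on the log2 scale had a 95% interval from -1.19 to 1.09 (FDR = 0.947, edgeR). bta-miR-2285au had 13.1, 40.1 and 16.0 CPM in grass-fed animals against 42.9, 11.3 and 17.7 CPM in grain-fed animals, with the same libraries high. bta-miR-2284j had 9.47, 21.9 and 8.66 CPM in grass-fed animals against 23.4, 4.25 and 14.2 CPM in grain-fed animals. bta-miR-2284m followed this order too, with 8.21, 20.5 and 7.09 CPM in grass-fed animals against 20.5, 5.66 and 12.4 CPM in grain-fed animals. No 2 of these 4 are listed under a common precursor. Within each diet the same library was highest for all 4 in plain CPM, without TMM, but the order across diets was not kept. There bta-miR-2285bo had 27.8, 71.4 and 32.4 in grass-fed animals against 103, 31.5 and 55.9 in grain-fed animals, so that grain-fed replicate 1 and not grass-fed replicate 2 was highest.

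The scatter within diets was set against counting error as a chi-square per degree of freedom, where counting error alone gives a value near 1. It was 74.7 for bta-miR-2285bo, 25.1 for bta-miR-2285au, 11.3 for bta-miR-2284j and 11.4 for bta-miR-2284m. The measure also rises with the count. Its expectation follows the TMM-scaled totals, so it depends on the scaling too, and plain totals were not tried. It was 101.5 for bta-miR-2284x, whose highest value was only 1.46 times the lowest within grass-fed and 1.31 times within grain-fed liver. In plain CPM the grass-fed values of bta-miR-2284x given above lay closer together, and its grain-fed values did not. For bta-miR-2285f the measure was 26.0 and for bta-miR-2285t 16.0, so under this scaling it does not set the 4 members apart. For bta-miR-2285bn, with 29.5, 32.3 and 31.0 CPM in grass-fed animals against 25.3, 26.9 and 33.7 CPM in grain-fed animals, it was 0.382. For bta-miR-2285ce it was 0.571 and for bta-miR-2285ba 0.373. These 3 members were also chosen after their values were seen. With 4 degrees of freedom, values this far under 1 are common under counting error alone. They say only that no scatter beyond counting error was detectable at this depth after TMM scaling. bta-miR-2284c had 13 counts in grass-fed replicate 2, 3 in grain-fed replicate 2 and none in the other 4 libraries.

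**Figure D5:**
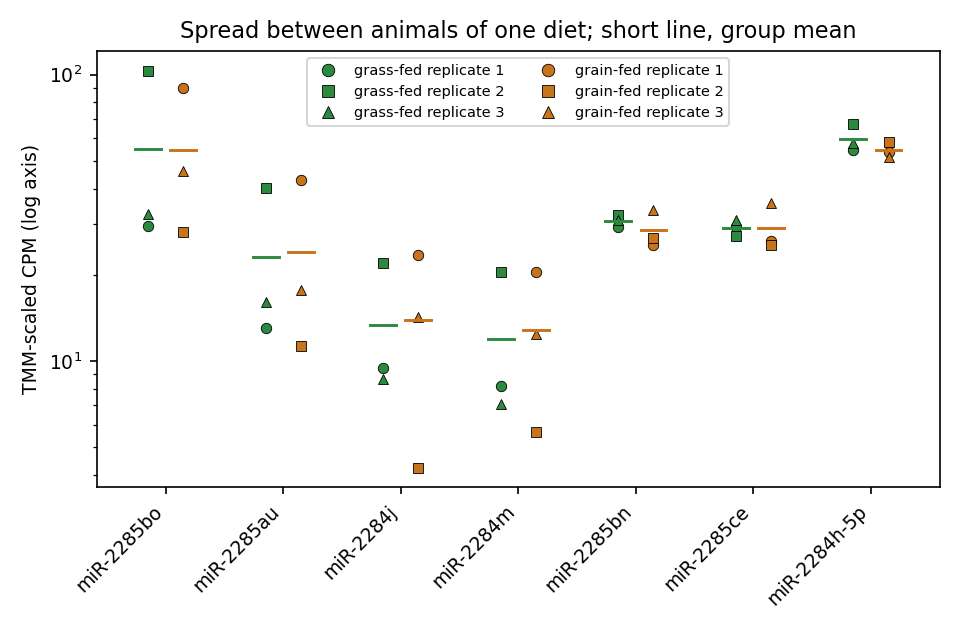
TMM-scaled CPM on a log axis for 4 members with wide and 3 with narrow spread between animals of one diet, with 1 point per library and the group mean as a short line. For miR-2285bo, miR-2285au, miR-2284j and miR-2284m the squares of grass-fed replicate 2 and the circles of grain-fed replicate 1 stand above the rest of their diet.

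The precursors of the family were placed by name in RefSeq's annotation of ARS-UCD2.0, which is later than the ARS-UCD1.2 assembly used for the counts. The table found 191 of 206 family precursors, and 125 of these, 65.4%, overlapped a protein-coding gene, against 66.1% of the 841 other precursors it found. Strand was not considered. As to neighbours, 13 of the family precursors, 6.81%, lay within 10 kb of another miRNA gene, against 31.0% of the others. These shares are descriptions, without a test. The precursor of bta-miR-2284x overlapped TIAM1, an activator of the small GTPase Rac, and that of bta-miR-2285t overlapped FCGR2B, an inhibitory Fc receptor. Of the precursors of bta-miR-2285f, the first overlapped TBK1, a kinase of innate immune signalling, and the second no protein-coding or lncRNA gene, and bta-mir-2285z overlapped SREK1, a splicing regulator. The 7 precursors of bta-miR-2284y, whose counts were nearly the same, were spread over SELENOI, RBBP8, PAX3, STK32A and 3 sites without such a gene. Of the 4 members with a wide spread between animals, bta-miR-2284j overlapped GRIK4, a glutamate receptor subunit, and bta-miR-2284m overlapped DNER, a Notch ligand, while bta-miR-2285bo overlapped no such gene.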

How the data were processed

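Small RNA of 18 to 30 nt from 6 livers was sequenced. The authors trimmed adapters, dropped poor reads and those shorter than 17 or longer than 25 bases, mapped the rest to ARS-UCD1.2 and quantified known miRBase entries by miRDeep2. The deposited counts are raw, for 1207 pairs of miRNA and precursor in each library, and the deposited CPM, scaled to the total over all pairs, was not used. The largest count over precursors was taken per mature miRNA, miRNAs exceeding 2 counts in 2 or more libraries were tested, and diets were compared with edgeR version 4.0.16 (TMM, quasi-likelihood, newer form of the fit, FDR 0.1) in R version 4.3.3. The standard error is the absolute log2 fold change over the root of F. The p-values rest on the spread between 3 animals a group, with 1 library each. In edgeR the estimate of that spread also draws on the other miRNAs. Alternatives were DESeq2 version 1.42.0, limma version 3.58.1, other scalings, filters and counting rules, and each library left out. The members, lists and named miRNAs were chosen with earlier results of these data known, including the lists of marker miRNAs. Named members are the 10 most abundant, those past FDR 0.1 in any planned setting, members that share reads or have both arms listed, bta-miR-2285b, the largest fitted changes, and members at the filter. In every pair of replicates counts differed by more than sampling noise.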

Additional observations from a re-analysis of the deposited data

How the results depend on the processing

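The call of 0 members held with DESeq2, the exact test of edgeR, RLE scaling, looser count filters, a filter of 10 counts in 3 libraries, merged members with equal counts or a common precursor, the older form of the fit and FDR 0.05. The number was 2 with limma-voom, 4 with upper-quartile scaling, 2 with total counts alone, 1 with filterByExpr, 1 with the sum over precursors, 2 with separate pairs and 1 with own-name precursors only, and ran from 0 to 2 with each library left out. The median log2 fold change of tested members was 0.015 with limma-voom, 0.31 with upper-quartile scaling, -0.29 with total counts alone, 0.0060 when 3 libraries had to reach 10 counts and 0.024 with filterByExpr, and ran from 0.070 to 0.31 with each library left out, the highest without grain-fed replicate 2. Members detected were 50 with at least 10 counts in 2 libraries and 40.8 at a common depth. Counted as pairs of a member and a precursor, 163 pairs passed the filter, where a member can enter more than 1 time. The family share in grass-fed and grain-fed libraries was 0.400% and 0.433% summed over precursors, 0.228% and 0.246% with equal counts once, 0.435% and 0.395% without bta-miR-122, which puts grass-fed higher, 0.145% and 0.162% with shared precursors once, and 0.155% and 0.174% on own names. The ranges of the diets did not overlap for the share summed over precursors, with shared precursors once or on own names. They overlapped with equal counts once and without bta-miR-122, which was left out only for the share as listed. The settings that used own names, shared precursors or the older fit were added after seeing the data. In 417 further values, 18 members under 24 settings, 28 turned sign, all without a call, and 14 gained a call. The sign of bta-miR-2285f turned with upper-quartile scaling (0.0016), as did that of bta-miR-2285bo (0.080). With total counts alone bta-miR-2284h-5p was at -0.29, bta-miR-2285k at -0.30, bta-miR-2285bn at -0.28 and bta-miR-2285ce at -0.37. bta-miR-2284h-5p was at -0.98 on its own precursor. bta-miR-2285k was at -0.033 with 10 counts in 3 libraries and -0.011 with filterByExpr. bta-miR-2285ce was at -0.047 with DESeq2, -0.040 with RLE, -0.022 with 1 count in 2 libraries, -0.091 with 10 counts in 3, -0.069 with filterByExpr, -0.0055 with the sum over precursors and -0.036 for pairs. With each library left out, log2 fold changes ran from -0.47 to 0.080 for bta-miR-2285f, -0.90 to 0.50 for bta-miR-2285bo, 0.070 to 0.62 for bta-miR-2285t, -0.19 to 0.40 for bta-miR-2285k, -0.013 to 0.21 for bta-miR-2285bn and -0.12 to 0.14 for bta-miR-2285ce. The cause of these shifts was not tested. Replicate numbers showed no sign of pairing the animals (correlations of deviations -0.05, -0.20 and -0.01), which cannot exclude a pairing. With the replicate number as a block 0 members were called, with a median log2 fold change of 0.13. Grouping by seed was not run.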
